A study of Homo sapiens with 267 samples.

Results

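Repressors of the fetal globin genes and the RNA-binding proteins of the LIN28B and IGF2BP axis were described in K562 single-cell libraries. The 10 genes were taken by symbol from the count table, namely BCL11A, ZBTB7A, LIN28B, IGF2BP1, IGF2BP2, IGF2BP3, SOX6, NR2C1, NR2F2 and HBS1L, out of 63677 genes listed. All 10 were in the table, each with at least 1 read in some library.

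In human development the beta-like globin genes are used in order, with epsilon globin (HBE1) in the embryo, gamma globin (HBG1 and HBG2) in the fetus and beta globin (HBB) in the adult. BCL11A and ZBTB7A (also called LRF) are zinc finger proteins that silence gamma globin in adult erythroid cells, SOX6 is an HMG box factor that acts with BCL11A, and NR2C1 (TR2) and NR2F2 (COUP-TFII) are orphan nuclear receptors that bind direct repeats in the epsilon and gamma promoters. LIN28B is a fetal RNA-binding protein that blocks maturation of let-7 microRNAs, and the IGF2BP proteins are RNA-binding proteins of fetal cells whose own messenger RNAs are let-7 targets. HBS1L, a ribosome rescue factor, lies beside the erythroid regulator MYB, and the interval between both genes carries variants linked to fetal haemoglobin.

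K562 is an established leukaemia line that carries the BCR-ABL fusion and makes embryonic and fetal globin but almost no beta globin. Cells were captured on the Fluidigm C1 system, in which RNA of cells held in microfluidic sites is turned into cDNA. The Hoechst run held untreated cells of passages 90 to 92 stained with Hoechst and propidium iodide. The benzene run held untreated cells under CellTracker Green and cells given 10 mM benzene for 3 h under CellTracker Orange. The imatinib run held untreated cells under CellTracker Green and cells given 1 µM imatinib, an inhibitor of BCR-ABL, for 1 h under CellTracker Orange. Cells of both CellTracker runs were of passages 20 to 22 and were also given a dead-cell stain. The labels wrote hours after the passage numbers. Stain and drug cannot be told apart within a run, and fresh and DSP-fixed cells, bulk samples and empty sites were not told apart here.

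Counts were available for 263 libraries, with 50358 to 2043351 reads on genes each, and 242 had at most 70% of their reads in their top 500 genes and were kept. These were 82 libraries of the Hoechst run, 31 Green and 34 Orange libraries of the benzene run, and 50 Green and 45 Orange libraries of the imatinib run. The labels name no separate cultures within a group, so libraries are not taken as replicates of a condition. The only test was that between stains over the sums of both CellTracker runs. Intervals of levels and ratios cover the counting of reads only, and those of detection shares the number of libraries only. Reads carry no molecular identifiers, so copies of 1 molecule can count as several reads, and the read intervals are too narrow for molecules. All 10 K562 markers examined, GATA1, TAL1, KLF1, PRAME and both gamma genes among them, had 3 or more reads, here called detection, in over 20% of each group's libraries. CDKN2A and CDKN2B, which lie in the deleted 9p21 region of K562, had 0 reads in every group. The median number of detected genes per kept library was 7410.5 in the Hoechst run, 5963 and 5859.5 in benzene run Green and Orange, and 8082 and 7797 in imatinib run Green and Orange.

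The letters that tie LIN28B and the IGF2BP genes together are the let-7 seed and its matches, and they are shown because they divide the 10 genes. All 9 mature let-7 and miR-98 sequences of RefSeq (GRCh38.p14) have the same bases 2 to 8, shown in capitals, 5′ to 3′.
hsa-let-7a-5p: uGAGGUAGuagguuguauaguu
hsa-let-7b-5p: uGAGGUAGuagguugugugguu
hsa-let-7i-5p: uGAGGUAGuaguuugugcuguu
hsa-miR-98-5p: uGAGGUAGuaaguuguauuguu

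The 7 bases that pair with this seed, CTACCTC on the transcript strand, were searched in the 3′ untranslated region of the canonical transcript of each gene (GENCODE v44lift37 on GRCh37). LIN28B and IGF2BP1 held 4 matches each, IGF2BP2 and IGF2BP3 held 1 each, and the other 6 genes held 0. Each match is shown in capitals with 8 bases on both sides, 5′ to 3′ on the transcript strand.
LIN28B, chr6:105526694-105526716, plus strand: tgcaaagtCTACCTCatgcaagt
LIN28B, chr6:105529121-105529143, plus strand: gatagtaaCTACCTCtgagtttg
LIN28B, chr6:105529303-105529325, plus strand: gcaaaaggCTACCTCatagttga
LIN28B, chr6:105530742-105530764, plus strand: ggtgttgaCTACCTCttgaatca
IGF2BP1, chr17:47128430-47128452, plus strand: gaagtaaaCTACCTCaaggtatg
IGF2BP1, chr17:47131067-47131089, plus strand: gctagtaaCTACCTCacagagcc
IGF2BP1, chr17:47131721-47131743, plus strand: tggattaaCTACCTCaatcctta
IGF2BP1, chr17:47132366-47132388, plus strand: tgttttatCTACCTCttagcaaa
IGF2BP2, chr3:185362001-185362023, minus strand: agaagaagCTACCTCaggtgttt
IGF2BP3, chr7:23351407-23351429, minus strand: ttactcaaCTACCTCaggtattc

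A following A, which lies opposite base 1 of the microRNA, was present at 2 of the 4 LIN28B matches, 3 of the 4 IGF2BP1 matches and the single matches of IGF2BP2 and IGF2BP3. Of 18858 canonical 3′ untranslated regions, 1853 (9.83%) held at least 1 match. Length matters to such a count, since 3′ untranslated regions over 2000 bases held a match in 20.9% of 5862 cases. Among 1514 regions within 20% of the length of that of LIN28B (4549 bases), 3 (0.198%, LIN28B included) held 4 or more matches. Among 738 regions of about the length of that of IGF2BP1 (6701 bases), 4 (0.542%, IGF2BP1 included) did so. At the lengths of IGF2BP2 and IGF2BP3, 13% and 12.5% of regions held a match. SOX6 had 0 matches in 6360 bases and HBS1L 0 in 4901 bases. MicroRNAs were not measured in these libraries, and a match is a description of the letters.

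**Figure D1:**
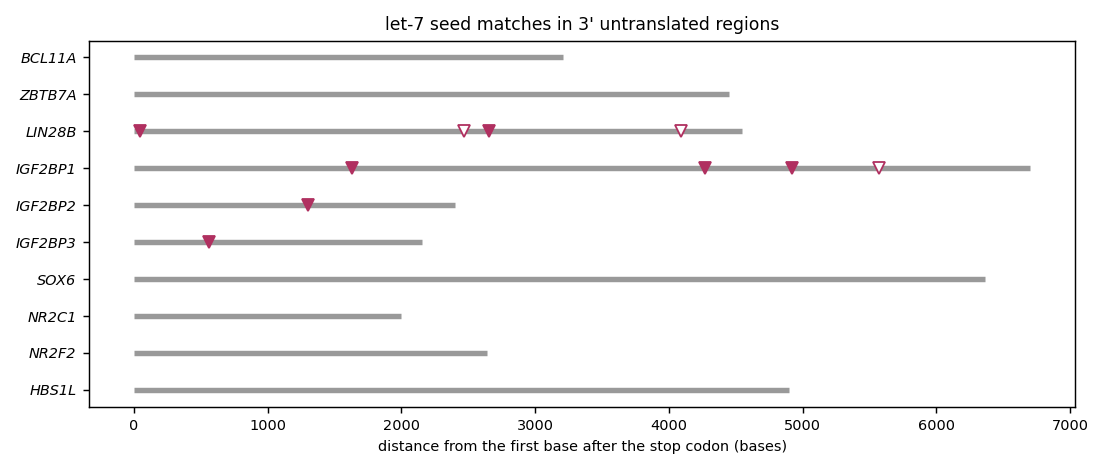
Matches to the let-7 seed (triangles) along the 3′ untranslated region of the canonical transcript of each gene (grey bars, in bases from the first base after the stop codon). Filled triangles are followed by an A, and only LIN28B and the IGF2BP genes carry triangles, 10 in all.

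Levels can be set side by side between genes only per length. In reads per kilobase of canonical transcript and per 1000000 reads on genes (RPKM of the summed counts of a group), IGF2BP1 was the highest of the 10 genes in 4 groups, between 25.1 in benzene run Orange and 43.5 in imatinib run Orange, and was second in benzene run Green at 18.5. HBS1L stood at 17.4 to 25.1 RPKM, first in benzene run Green at 21.5, second in the other CellTracker groups and behind IGF2BP1, IGF2BP2 (19 RPKM) and NR2C1 (17.9 RPKM) in the Hoechst run. ZBTB7A was ninth in every group at 0.195 to 1.58 RPKM, and BCL11A was last in every group at 0 to 0.0157 RPKM. The other 6 genes lay between 1.86 RPKM (SOX6, imatinib run Green) and 19 RPKM (IGF2BP2, Hoechst run). On the same scale HBG2 stood between 3050 RPKM in the Hoechst run and 5014 RPKM in benzene run Orange. HBG1 and HBG2 are near-identical, so gamma globin is given as the sum of both where it is related to other genes. Only uniquely mapped reads were counted, so reads that fit both genes equally are missing from that sum. In the annotation used here, exons of HBG2 and HBE1 also share bases with each other and with further genes.

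**Figure D2:**
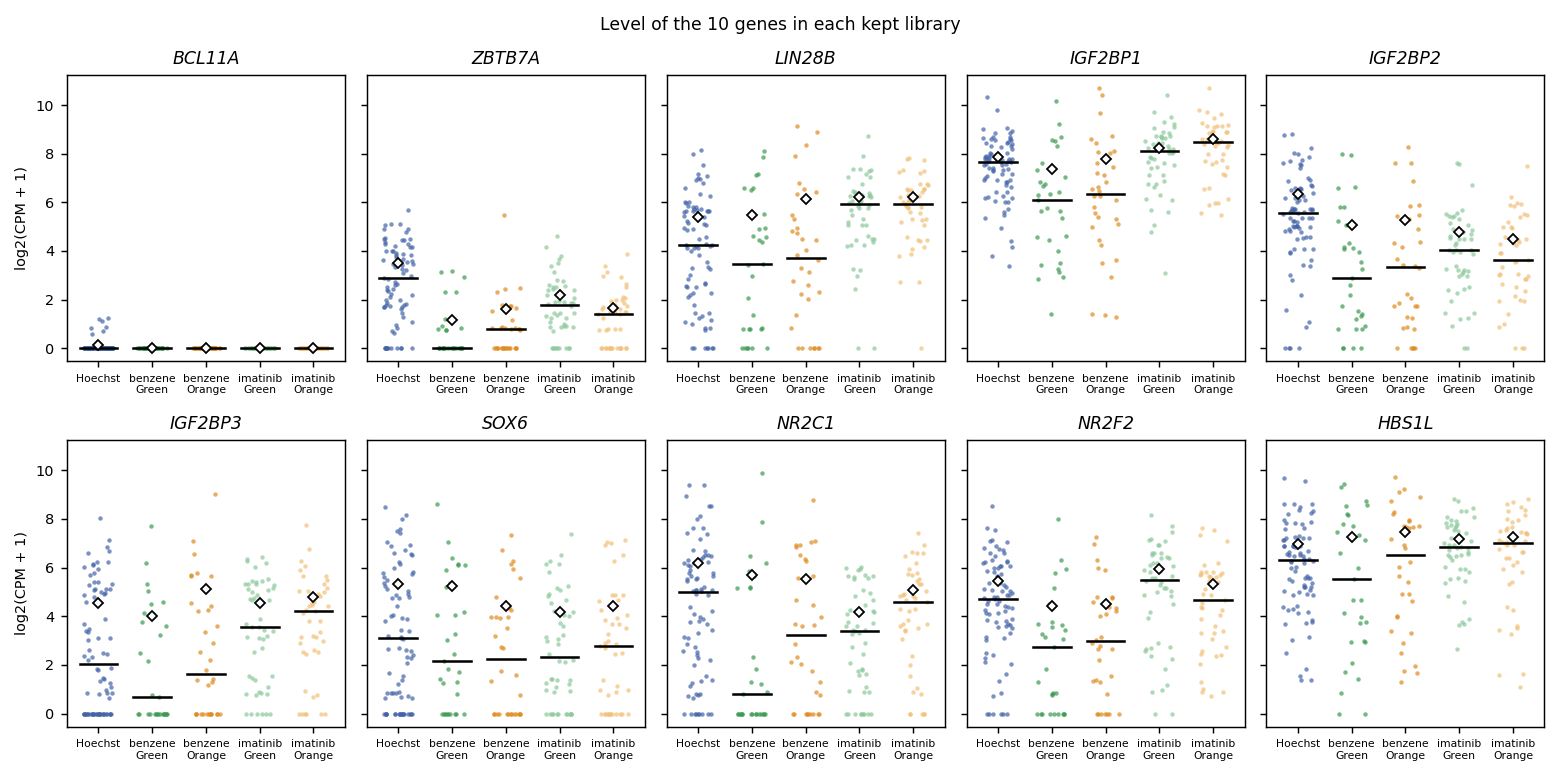
Level of each gene in each of the 242 kept libraries as log2(CPM + 1), CPM being reads per 1000000 reads on genes, by group. Bars are medians over libraries and open diamonds are the summed counts of the group. BCL11A sits at 0 in nearly all libraries, IGF2BP1 and HBS1L are the highest, and most other genes spread from 0 to above 6 within a group.

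BCL11A (ENSG00000119866, chr2:60677655-60781602, minus strand of GRCh37) was all but undetected. It had 10 reads among the 104117693 reads of the Hoechst run, and 0 reads in each of the 4 CellTracker groups, where 0 allows up to 3 reads. Over all 263 libraries there were 11 reads in 8 libraries, with at most 2 reads in any of them. No library reached 3 reads, which allows a detected share of up to 3.66% in the Hoechst run and of up to 9.68% in the smallest group, benzene run Green. MYB, an erythroid regulator measured on the same counts, had 3 or more reads in 221 of the 242 libraries. BCL11A is therefore left out of the ratios below, since both sides would stand at or near the floor.

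ZBTB7A (ENSG00000178951, chr19:4043301-4066897, minus strand) was low and was highest in the Hoechst run. Its CPM in single libraries ran from 0 through a median of 6.31 to 50.1 in the Hoechst run. In the benzene run it ran from 0 through 0 to 8.13 in Green and from 0 through 0.727 to 43.8 in Orange. In the imatinib run it ran from 0 through 2.42 to 23.5 in Green and from 0 through 1.65 to 13.9 in Orange. The ranges overlapped in all 10 pairs of groups. The interquartile range of the Hoechst run lay above those of both benzene run groups. That of imatinib run Green lay above that of benzene run Green. How many of all genes have interquartile ranges apart in these pairs was not counted. ZBTB7A was detected in 73.2% of Hoechst libraries (exact 95% interval 62.2% to 82.4%), 16.1% (5.45% to 33.7%) and 23.5% (10.7% to 41.2%) of benzene run Green and Orange libraries, and 50% (35.5% to 64.5%) and 42.2% (27.7% to 57.9%) of imatinib run Green and Orange libraries. With each library thinned to 500000 reads these shares were 53.8%, 9.68%, 8.82%, 28% and 11.1%. In benzene run Orange, 54.2% of the ZBTB7A reads came from 1 library, that with title number 44.

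SOX6 (ENSG00000110693, chr11:15987995-16761138, minus strand) was detected in shares of libraries between 55.9% (benzene run Orange) and 63.4% (Hoechst run). Its median CPM was 7.56 in the Hoechst run, 3.48 and 3.97 in benzene run Green and Orange, and 3.96 and 5.90 in imatinib run Green and Orange. The lowest library was at 0 in each group, and the highest stood between 140.3 (imatinib run Orange) and 396 (benzene run Green). The top 8 of the 82 Hoechst libraries held 58.2% of its reads, near the median of 55.4% over all genes found in 20% or more of those libraries, and 1 library of benzene run Green (number 49) held 41.2% of the reads there.

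NR2C1 (ENSG00000120798, chr12:95414005-95467404, minus strand) was detected in 78% of Hoechst, 38.7% of benzene run Green, 64.7% of benzene run Orange, 74% of imatinib run Green and 80% of imatinib run Orange libraries. Its median CPM was 30.7 in the Hoechst run, 0.768 and 8.66 in benzene run Green and Orange, and 9.64 and 22.7 in imatinib run Green and Orange, with at least 1 library at 0 in each group. The single highest value of NR2C1, 943 CPM, was in a benzene run Green library (number 68) that alone held 56.8% of the NR2C1 reads of its group. The highest libraries elsewhere stood at 680 CPM in the Hoechst run, 433 in benzene run Orange, and 64 and 172 in imatinib run Green and Orange.

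NR2F2 (ENSG00000185551, chr15:96869167-96883492, plus strand) was detected in 89% of Hoechst libraries, 90% and 88.9% of imatinib run Green and Orange libraries, and 54.8% and 67.6% of benzene run Green and Orange libraries. Its median CPM was 25.5 in the Hoechst run, 5.61 and 6.89 in benzene run Green and Orange, and 44.6 and 24.7 in imatinib run Green and Orange. The lowest library was at 0 in 4 groups and at 0.667 CPM in imatinib run Orange, and the highest stood between 153 (benzene run Orange) and 366 CPM (Hoechst run). The interquartile ranges of SOX6, NR2C1 and NR2F2 overlapped in all 10 pairs of groups.

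LIN28B (ENSG00000187772, chr6:105384491-105531207, plus strand) was detected in nearly every library of the imatinib run and in fewer elsewhere. It was found in 96% (86.3% to 99.5%) of imatinib run Green and 97.8% (88.2% to 99.9%) of imatinib run Orange libraries, against 79.3% in the Hoechst run and 61.3% and 73.5% in benzene run Green and Orange. Its CPM ran from 0 through a median of 17.8 to 280.0 in the Hoechst run. In the benzene run the medians were 10.0 and 12.3 and the highest libraries 272 and 561.98 CPM in Green and Orange. In the imatinib run the medians were 59.8 and 60.7 and the highest libraries 426 and 225 CPM. After thinning to 500000 reads the order remained, with 94% and 95.6% in the imatinib run, 68.8% in the Hoechst run and 54.8% and 61.8% in the benzene run. Its paralogue LIN28A, which blocks let-7 in embryonic stem cells, had 17 to 147 reads per group and was detected in 2.00% to 6.67% of libraries.

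IGF2BP1 (ENSG00000159217, chr17:47074747-47133507, plus strand) was the most widely detected of the 10 genes in 4 groups, alone or level with HBS1L, which was ahead in benzene run Orange. It had 3 or more reads in all 82 Hoechst libraries and in all 50 and 45 libraries of the imatinib run, which by exact intervals allows shares down to 95.6%, 92.9% and 92.1%, and in 30 of 31 and 31 of 34 libraries of benzene run Green and Orange. The lowest, median and highest CPM were 9.27, 203 and 1269 in the Hoechst run. They were 1.66, 67.5 and 1161 in benzene run Green and 1.44, 81.5 and 1683 in benzene run Orange. They were 7.52, 279 and 1366 in imatinib run Green and 44, 356 and 1667 in imatinib run Orange. Only benzene run Green and imatinib run Orange had interquartile ranges that did not overlap, and the share of all genes apart in that pair was not counted.

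IGF2BP2 (ENSG00000073792, chr3:185360918-185542830, minus strand) had its highest levels in the Hoechst run. Its median CPM was 45.9 there, 6.42 and 9.12 in benzene run Green and Orange, and 15.2 and 11.4 in imatinib run Green and Orange. The lowest library was at 0 in each group, and the highest stood between 178 (imatinib run Orange) and 441 CPM (Hoechst run). It was detected in 91.5% of Hoechst, 64.5% and 70.6% of benzene run, and 86% and 86.7% of imatinib run libraries, Green and Orange in that order.

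IGF2BP3 (ENSG00000136231, chr7:23349828-23510110, minus strand) was the least detected of its family. It reached 3 reads in 53.7% of Hoechst, 45.2% and 50% of benzene run, and 68% and 80% of imatinib run libraries. Its median CPM was 3.13 in the Hoechst run, 0.603 and 2.07 in the benzene run, and 10.7 and 17.7 in the imatinib run, again Green before Orange. Its highest library was in benzene run Orange (number 58, 523 CPM), and that library held 48.5% of the IGF2BP3 reads of its group. Exons of LIN28B, IGF2BP1, IGF2BP3 and NR2F2 share bases with other genes in the annotation, on the opposite strand for LIN28B and IGF2BP3, on both strands for IGF2BP1 and on the same strand for NR2F2, and since the strand setting of the counting was not given in the sources used here, reads of such partners cannot be told apart from theirs.

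HBS1L (ENSG00000112339, chr6:135281516-135424194, minus strand) was detected in 87.1% to 100% of the libraries of each group. Its median CPM was 78.4 in the Hoechst run, 45.7 and 92.1 in benzene run Green and Orange, and 113 and 128 in imatinib run Green and Orange. The lowest library was between 0 (benzene run Green) and 5.26 CPM (imatinib run Green), and the highest between 449 (imatinib run Orange) and 843 CPM (benzene run Orange). Its neighbour MYB had 125.4, 177 and 128 CPM in the summed counts of the Hoechst run and of benzene run Green and Orange, and 69.4 and 48.8 CPM in imatinib run Green and Orange. The interquartile ranges of HBS1L, LIN28B, IGF2BP2 and IGF2BP3 overlapped in all 10 pairs of groups.

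**Figure D3:**
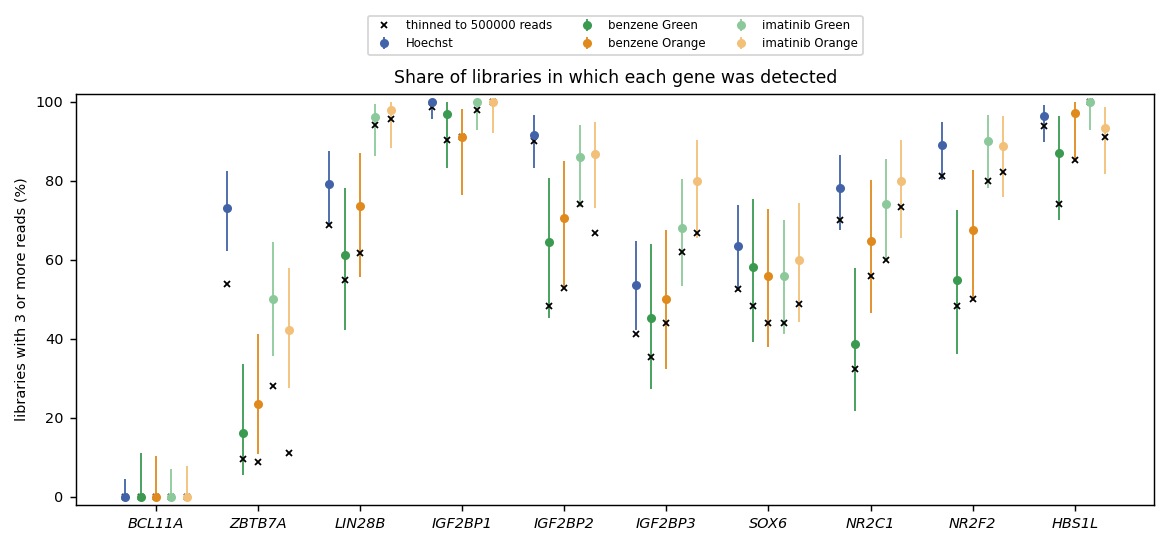
Share of kept libraries with 3 or more reads of each gene, by group, with exact 95% binomial intervals (bars, covering the number of libraries only) and the share after thinning to 500000 reads (crosses). BCL11A is at 0% in every group, ZBTB7A falls from 73.2% in the Hoechst run to 16.1% in benzene run Green, and IGF2BP1 and HBS1L stand near the top throughout.

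Single libraries differed widely in how many of the 10 genes they showed. A Hoechst library showed 4 to 9 of them with a median of 7, a benzene run Green library 2 to 9 with a median of 5, and a benzene run Orange library 2 to 9 with a median of 6. Both imatinib run groups had a median of 7, with 4 to 9 in Green and 5 to 9 in Orange. Both benzene run groups also had the lowest median numbers of detected genes per library given above, whose part in these counts was not tested.
The coefficient of variation (SD over mean of CPM) of IGF2BP1 was 0.829, 0.787 and 0.766 in the Hoechst run and in imatinib run Green and Orange, where the median over all genes found in 20% or more of the libraries was 1.78, 1.37 and 1.42. It was 1.58 and 1.71 in benzene run Green and Orange, where the medians over genes were 1.87 and 1.90. The highest coefficient of any of the 10 genes among such genes was that of ZBTB7A in benzene run Orange (3.34), followed by NR2C1 in benzene run Green (3.31), and both rest on the single libraries named above. SOX6 varied between 1.74 and 2.25 in all groups.

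The first comparison asked whether the genes differed between stains, and so between drug and no drug, within a run. In the benzene run 1 of the 9 genes tested passed a 2-fold difference in summed counts, log2 of the ratio of CPM + 1 being 1 or more, and 0 were lower by as much. Among all 10072 genes that 20% or more of the libraries of either group showed, 12.9% were higher and 10.9% lower by that measure. The gene was IGF2BP3, with 15.2 CPM in Green and 33.9 CPM in Orange, a log2 ratio of 1.11 (counting interval of the plain ratio 1.02 to 1.29). Without the single Orange library 58 the log2 ratio of IGF2BP3 was 0.23. The mean of log2(CPM + 1) over libraries differed by 0.47. LIN28B had 44.1 CPM in Green and 70.2 in Orange (log2 ratio 0.66), IGF2BP1 had 163 and 221 (0.44), SOX6 had 36.8 and 20.4 (-0.82, but -0.13 without the Green library 49 and -0.36 by the mean of log2), and the other genes lay between -0.17 and 0.45. NR2C1 stood at -0.17 in the summed counts, at 0.96 without the Green library 68, and at 0.99 by the mean of log2 over libraries. The median of the 9 genes was 0.22 and that of all genes tested 0.05.

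In the imatinib run 0 of the 9 genes passed 2-fold in either direction, where 3.76% of 11416 genes were higher and 4.30% lower in Orange. NR2C1 came nearest, with 17.2 CPM in Green and 32.6 CPM in Orange (log2 ratio 0.88, 0.77 to 0.98 when each library was left out in turn, and 0.95 by the mean of log2 over libraries). NR2F2 had 60.2 and 38.5 CPM (-0.63, -0.76 to -0.52) and ZBTB7A 3.51 and 2.19 CPM (-0.50, -0.62 to -0.40). IGF2BP1 had 302 and 383 CPM (0.34), and LIN28B had 73.5 and 73.6 CPM (0.00, counting interval -0.06 to 0.06). The median of the 9 genes was 0.09 and that of all genes -0.02.

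With the 4 sums of both CellTracker runs in 1 model with the run as a term, edgeR's quasi-likelihood test with Benjamini-Hochberg adjustment called 0 of 17684 genes between Orange and Green (0% called, 439 at an unadjusted p under 0.05). DESeq2 called 117 genes (0.662%). Neither tool called any of the 9 genes, whose adjusted p was 1 in edgeR and 0.883 or more in DESeq2. IGF2BP1 had the smallest unadjusted p of the 9 in edgeR (0.0741), at a log2 difference of 0.38, and was higher in Orange in 2 of 2 runs. IGF2BP3 had the largest difference, 0.70 (unadjusted p 0.229), also higher in both runs. The 4 sums come from 2 runs and the run is a term. These p-values therefore set the stain difference against its own variation between the 2 runs, not against a spread between cultures of 1 condition. This test sets a pair of stained groups against another pair with different drugs in each, so a response to 1 drug alone is not what it measures.

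The second comparison set the Hoechst run against untreated Green cells of the other runs. Run, cell lot, passage, stain, storage time of fixed cells and sequencing (another instrument and read length) differ together between these groups and cannot be told apart. Cell lot and storage time are as stated in the paper. Dead cells were sequenced only in the run with propidium iodide. Against benzene run Green, 3 of 9 genes were at least 2-fold higher in the Hoechst run and 0 lower, beside 26.7% and 11.8% of 11052 genes. Against imatinib run Green, 4 of 9 were higher and 0 lower, beside 20.6% and 13% of 11719 genes. The Hoechst sums are the same in both, so the comparisons are not independent.

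ZBTB7A and IGF2BP2 passed in both, ZBTB7A not under every setting. ZBTB7A had 10.2 CPM in the Hoechst run, against 1.25 in benzene run Green and 3.51 in imatinib run Green, which gives log2 ratios of 2.31 and 1.31 with the pseudocount of 1. Without the pseudocount the ratios were 8.14-fold (counting interval 6.17 to 10.9) and 2.91-fold (2.52 to 3.38), with a pseudocount of 10 the log2 ratios were 0.84 and 0.58, and by the mean of log2 over libraries they were 2.02 and 0.97. IGF2BP2 had 81.2 CPM against 32.8 and 26.4, log2 ratios of 1.28 and 1.58. Leaving out any single library left both genes past 2-fold in both comparisons, with log2 ratios of 2.26 to 2.48 and 1.26 to 1.42 for ZBTB7A and of 1.16 to 1.67 and 1.46 to 1.79 for IGF2BP2.
NR2C1 passed against imatinib run Green only (72.5 against 17.2 CPM, log2 ratio 2.01) and had 0.49 against benzene run Green, or 1.62 without library 68 of that group. SOX6 had 39.4 CPM against 36.8 and 17.3, log2 ratios of 0.10 and 1.15, with 0.78 for the first without benzene run Green library 49, and 0.34 and 0.54 by the mean of log2 over libraries. NR2F2 stood on the threshold against benzene run Green (42.4 against 20.6 CPM, log2 ratio 1.00), was past it in 66 of 113 leave-one-out sums, and was lower than in imatinib run Green (60.2 CPM, -0.50). Members of the LIN28B axis other than IGF2BP2 lay within 2-fold, with LIN28B at -0.09 and -0.82, IGF2BP1 at 0.52 and -0.37, and IGF2BP3 at 0.54 and 0.02 against benzene and imatinib run Green. By the mean of log2 over libraries LIN28B stood at 0.57 and -1.50 and IGF2BP1 at 1.52 and -0.40, so that LIN28B changed sign against benzene run Green and each gene passed 2-fold in 1 comparison. By the mean of log2 the median over all genes tested was itself 0.62 and -0.18 in these comparisons, so LIN28B stood near it in the first. In summed counts that median was 0.27 and 0.13. With TMM factors, which move those medians to 0.01 and -0.01, NR2F2 against benzene run Green no longer passed, and 54.3% of the genes past 2-fold in that comparison were higher in the Hoechst run in place of 69.4%.

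The groups of untreated Green cells, of the same passages, also differed. In imatinib run Green against benzene run Green, 1 of 9 genes was at least 2-fold higher and 2 lower, beside 19.9% higher and 11.9% lower of 11098 genes. NR2F2 was higher (60.2 against 20.6 CPM, log2 ratio 1.5), and SOX6 (17.3 against 36.8 CPM, -1.05) and NR2C1 (17.2 against 51.3 CPM, -1.52) were lower. The latter pair rest on 1 library each. Without benzene run Green library 49 SOX6 stood at -0.36, and without library 68 NR2C1 stood at -0.39. By the mean of log2 over libraries, 6 of the 9 genes were at least 2-fold higher in imatinib run Green, beside 38.9% of all genes tested. NR2C1 turned to 0.74, but the median of all genes was then 0.75. ZBTB7A (3.51 against 1.25 CPM) lay just under the threshold with the pseudocount of 1, at a log2 ratio of 1.00, but at 2.8-fold (counting interval 2.06 to 3.85) without it, and LIN28B at 0.73 and IGF2BP1 at 0.89 were below it.

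**Figure D4:**
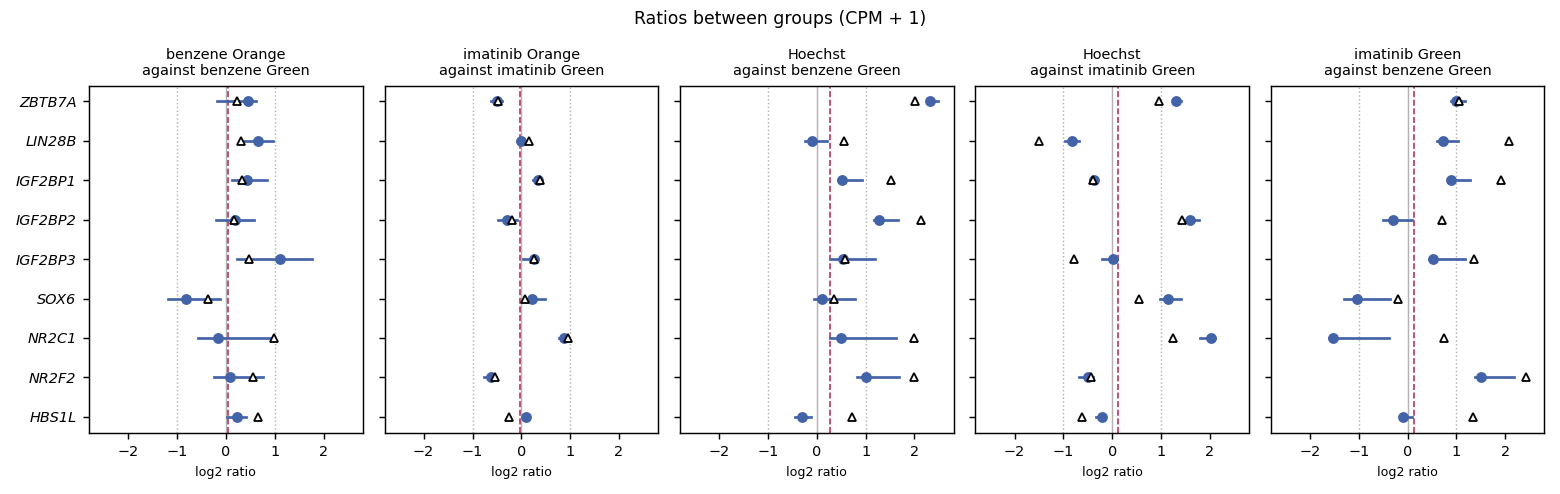
Log2 ratio of CPM + 1 of summed counts (filled circles) for 9 genes in 5 comparisons, the range when each library is left out in turn (lines), and the difference of means of log2(CPM + 1) over libraries (open triangles). Dotted lines mark 2-fold and dashed lines the median of all genes tested. In the stain comparisons all circles but that of IGF2BP3 in the benzene run lie within 2-fold, and the longest lines belong to the benzene run, as for NR2C1, whose ratio of the Hoechst run to benzene run Green runs up to 1.62.

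Genes that work with the members were described from lists. The 20 corepressor and chromatin genes hold the NuRD subunits through which BCL11A and ZBTB7A act (CHD4, MBD2, MTA2, HDAC1 and others), DNMT1, the LSD1 complex (KDM1A, RCOR1) and NR2C2, the TR4 partner of NR2C1. Of these, 19 reached 3 reads in 20% or more of the libraries in each group. CHD4, the NuRD helicase, had 397 to 606 CPM and was detected in 100% of the libraries of every group. Between stains, 0 were 2-fold higher and 2 of 19 lower in benzene run Orange (NR2C2 with 15.6 against 54.2 CPM and MTA2 with 8.08 against 26.2 CPM), and 1 of 19 was higher and 0 lower in imatinib run Orange (MTA2, 28.5 against 10.9 CPM, log2 ratio 1.31, but 0.75 by the mean of log2). By the mean of log2 over libraries NR2C2 and MTA2 in the benzene run turned to 0.18 and 0.41. Against benzene run Green the Hoechst run had 2 higher and 2 lower, led by CHD3 (46.7 against 7.90 CPM, log2 ratio 2.42). Of all genes tested, 12.9% were higher and 10.9% lower in benzene run Orange, and 3.76% and 4.30% in imatinib run Orange. For the Hoechst run against benzene run Green these shares were 26.7% and 11.8%. They also stand beside the counts of the lists below.

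All 7 upstream regulators (KLF1, MYB, GATA1, TAL1, HIC2, EIF2AK1 and ATF4) were found in over 50% of the libraries of each group. KLF1, an activator of BCL11A in adult erythroid cells, had 33.7 to 93.9 CPM while BCL11A was at the floor. HIC2, a fetal repressor of BCL11A, had 118, 34.2, 52, 123 and 109 CPM in the Hoechst run, benzene run Green and Orange and imatinib run Green and Orange. In both stain comparisons 0 of the 7 passed 2-fold, and MYB had the lowest log2 ratio in both, -0.46 and -0.50 in summed counts and -0.16 and -1.16 by the mean of log2 over libraries. The Hoechst run had 2 of the 7 higher against benzene run Green, HIC2 (1.76) and KLF1 (1.33), beside 26.7% of all genes tested.

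In the let-7 list of 17 genes, processing enzymes had 4.80 CPM (DIS3L2, benzene run Green) to 426 CPM, and HMGA2, TRIM71 and IGF2 were at or near 0. XPO5, which exports precursor microRNAs, had 238 to 426 CPM, and TUT4, which adds uridines to precursor let-7 bound by LIN28 proteins, had 71.6 to 141 CPM. HMGA2, with 4 seed matches, had 0 to 4 reads per group, TRIM71, with 6, had 0 to 6 reads and IGF2, with 0 matches, had 0 reads in all groups, and MIRLET7BHG, a host transcript of let-7 microRNAs, had 0 to 293 reads. IGF1R, CDC25A, ARID3A and PLAGL2, which hold 1 or 2 let-7 seed matches each, had 1.42 to 118 CPM. Of 10 genes of the list tested in the benzene run, DICER1 was higher (28 against 11 CPM, log2 ratio 1.28, but 0.49 by the mean of log2) and CDC25A lower in Orange (20.9 against 54.9 CPM). Of 12 tested in the imatinib run, IGF1R was higher (31.7 against 12.1 CPM, log2 ratio 1.32, but 0.67 by the mean of log2) and 0 were lower. The shares of all genes tested were 12.9% higher and 10.9% lower in the benzene run, and 3.76% and 4.30% in the imatinib run.

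Of the 9 partners and target RNAs of IGF2BP proteins, ACTB had 3111 to 4924 CPM and was detected in every library. In both stain comparisons 0 passed 2-fold, and MYC, whose RNA IGF2BP1 stabilises, came nearest with 84.2 CPM in imatinib run Orange against 151 in Green (-0.84, and -1.69 by the mean of log2). H19, a fetal noncoding RNA bound by IGF2BP proteins, had 79.3 CPM in the Hoechst run against 1.74 to 3.74 CPM in the other groups, and CD44 23.2 CPM against 0.0237 to 0.521 CPM. MYC was lower in the Hoechst run than in benzene run Green (108 against 231 CPM). Markers of other blood cells were near 0, with GP9 and PF4 at 0 reads in all groups and CD3E at 4 reads or fewer, and their summed level was 32.2 to 85.2 CPM over 9 genes. ITGA2B, the megakaryocytic integrin, made up 54.1 CPM of the highest sum, which was in the Hoechst run, against 1.43 to 8.17 CPM elsewhere. The part of such differences in the higher ZBTB7A and IGF2BP2 of the Hoechst run was not tested.

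The globin genes were present in all groups. Summed counts gave HBG2 1787 CPM in the Hoechst run, 2905 and 2938 CPM in benzene run Green and Orange, and 2494 and 2500 CPM in imatinib run Green and Orange, with HBG1 at 579 to 860 CPM and HBE1 at 390 to 868 CPM. HBB had at most 53 reads in a group and was detected in at most 5.88% of libraries.

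Over libraries within a group, the relation of the members to gamma and epsilon globin was weak. Spearman's rho of CPM with gamma globin, over 31 to 82 libraries, lay between -0.46 and 0.26 in the 44 cases in which 20% or more of a group's libraries showed the member, with a mean of -0.08. With epsilon globin it lay between -0.41 and 0.26 with a mean of -0.03. Libraries of a group share the sequencing lane, and CPM of all genes share a total. According to the paper fresh and fixed cells were captured on different days, and they are pooled here. In benzene run Green and Orange gamma globin had rho of -0.48 and -0.42 with depth itself, against -0.01 to -0.16 in the other groups.
HBS1L was the only member with a negative rho with gamma globin in all 5 groups, at -0.05 in the Hoechst run (but 0.22 there with the libraries left out of the sums included), -0.25 and -0.46 in benzene run Green and Orange, and -0.05 and -0.13 in imatinib run Green and Orange. The lowest of these stood at the 1.42 percentile of the 9703 genes compared in benzene run Orange, while that of the Hoechst run was at the 16.1 percentile. HBS1L itself had rho of 0.46 and 0.29 with depth in benzene run Green and Orange, and the part of depth in these values was not tested. How many of all genes had a negative rho with gamma globin in all 5 groups was not counted. NR2C1, NR2F2 and SOX6 were negative in 4 groups each, NR2C1 with 0.02 in the other. NR2F2 had -0.41 in benzene run Green and -0.36 in imatinib run Orange but 0.08 in the Hoechst run. SOX6 had -0.36 in benzene run Orange and 0.15 in imatinib run Orange, and IGF2BP2 had -0.37 and 0.26 in the same groups. ZBTB7A lay between -0.29 and 0.04 in the 4 groups where it was detected often enough, and LIN28B between -0.27 and 0.24.
Epsilon globin gave no member the same sign in all 5 groups. HBS1L, SOX6, IGF2BP1 and IGF2BP3 were negative in 4 groups each, HBS1L with -0.27 to -0.10 there and 0.14 in benzene run Green. The lowest value was that of IGF2BP3 in benzene run Orange (-0.41). In these sparse counts values of this size are given as a description only.

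**Figure D5:**
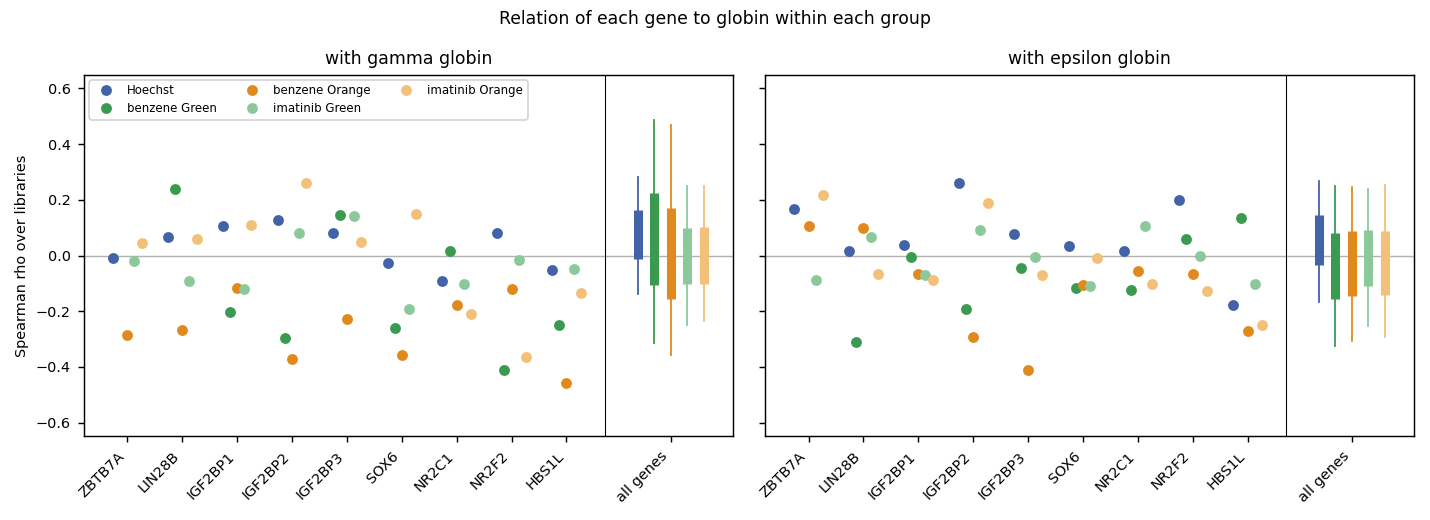
Spearman's rho over libraries between CPM of each of 9 genes and gamma (left) or epsilon globin (right) in each group (points), beside the spread over all genes found in 20% or more of the libraries (thick bars, quartiles; thin lines, percentiles 5 and 95). Points scatter around 0 from -0.46 to 0.26, mostly within the spread of all genes, with ZBTB7A missing for benzene run Green.

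The members were also related to each other. For the 28 pairs of the 8 genes that 20% or more of the libraries of each group showed, the mean over groups of rho had a median of 0.07, where all 34882128 pairs of 8353 genes had a median of 0.04 (quartiles -0.01 and 0.10). The highest pairs were IGF2BP2 with SOX6 (0.26, from 0.08 to 0.49 over the groups) and IGF2BP3 with HBS1L (0.24, from 0.13 to 0.44). Within the axis, IGF2BP3 had 0.15 with LIN28B (88.9 percentile of all pairs), 0.12 with IGF2BP1 (81.7 percentile) and 0.07 with IGF2BP2, while LIN28B and IGF2BP1 stood at 0.08, LIN28B and IGF2BP2 at -0.01, and IGF2BP1 and IGF2BP2 at -0.01. The nuclear receptors NR2C1 and NR2F2 gave the lowest pair, at -0.05.
Among 4697 genes found in 50% or more of the libraries of each group, those most like a member reached a mean rho of only 0.28 to 0.40. MBTPS1 (0.40), ZEB2 (0.32) and RTF1 (0.31) were most like IGF2BP1, CAT (0.36) and CRYZL1 (0.34) most like HBS1L, and SNHG29 (0.35), RAB6A (0.33) and COPZ1 (0.32) most like IGF2BP3. KIF15 (0.34) was most like NR2C1, MALAT1 (0.31) most like SOX6, CD81 (0.30) most like IGF2BP2, PAIP1P2 (0.30) most like LIN28B, and SMARCC1 (0.29) most like NR2F2. Each is among the 3 highest of all values computed for that member, taken over the same libraries that are described.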

How the data were processed

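Single-cell RNA-seq counts of K562 libraries were used. The authors deposited raw read counts per Ensembl gene, made by trimming, alignment with HISAT2 to GRCh37 with ERCC sequences and counting of uniquely mapped reads with featureCounts (Subread 1.5.0), with duplicates marked by Picard 1.92, versions as in the submitters' processing notes. The authors' CPM table was not used. Columns were matched to titles, and 4 columns that matched no title, with the 4 titles left over, were not used. No pair of libraries had identical counts. CPM were computed per 1000000 reads on genes, ERCC sequences excluded. Only libraries whose 500 most abundant genes took at most 70% of reads were kept, and their counts were summed per group (42276795 to 104117693 reads). Exact Poisson and Clopper-Pearson intervals (95%) were computed with scipy 1.17.1, and detection meant 3 or more reads. Ratios of CPM used a pseudocount of 1. Canonical transcript lengths and ratios without a pseudocount were added after seeing the data. The stain fit used edgeR 4.0.16 with filterByExpr, TMM factors and the run as a term, with DESeq2 1.42.0 as an alternative, in R 4.3.3. On simulated sums with 200 changed genes and dispersions as estimated, it recovered 172 and called 8 others among 17684 genes. The changed genes differed 8-fold, were drawn from the more highly expressed genes, and no run effect was simulated. Recovery of differences as small as those of the members was not simulated. Gene spans and 3′ untranslated regions came from GENCODE v44lift37, a later annotation than that of the counting, which held 55665 of the gene identifiers.

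The members and the gene lists were chosen with earlier results of these data known. Named besides the members were gamma and epsilon globin, the 3 genes most like each member and, per list, the highest and lowest ratios. List genes given by level were named after their values were seen. Some genes that this rule names are not reported here.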

Additional observations from a re-analysis of the deposited data

Results flagged for a closer look

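For 4 of the 9 genes compared and for HBE1, the Orange to Green log2 ratio had opposite signs in the benzene and imatinib runs. Each ratio was beyond the counting error of reads, which is narrow for sums of many reads and does not allow for copies of 1 molecule. How many of all genes do so was not counted, so the 4 cannot be set beside a background. The difference between runs was not tested, since each run gave 1 sum per stain. NR2C1 differed by 1.05 (-0.17 in the benzene run and 0.88 in the imatinib run), and the benzene run value was 0.96 without the Green library 68. SOX6 differed by 1.04 (-0.82 and 0.22), with -0.13 in the benzene run without the Green library 49, 0.02 in the imatinib run without the Orange library 13, and -0.36 and 0.08 by the mean of log2 over libraries. ZBTB7A differed by -0.95 (0.45 and -0.50), and its benzene run value was -0.19 without the Orange library 44. IGF2BP2 differed by -0.49 (0.19 and -0.29), with -0.21 in the benzene run without the Orange library 59. HBE1 differed by -0.46 (0.24 and -0.22).

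The 21 libraries left out of the sums, with 13105444 reads in all, also held reads of the members, and 9 of the 10 genes had more than 3 reads there. IGF2BP1 had 133 CPM in their sum, HBS1L 104 CPM, of which 92.7% came from 1 library, and LIN28B 2.98 CPM, while BCL11A had 1 read.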

How the results depend on the processing

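Counts of members past 2-fold were recomputed under 7 other settings and, as an alternative chosen after seeing the data, with each library left out in turn. With a pseudocount of 10 the count went from 1 to 0 in the benzene run, from 3 to 1 for the Hoechst run against benzene run Green and from 4 to 2 against imatinib run Green. With the mean of log2 over libraries it went to 0, 5 and 3 in these comparisons, and from 3 to 6 for imatinib run Green against benzene run Green, where NR2C1 turned from -1.52 to 0.74. Of all genes tested, 5.23% were then higher and 2.88% lower in the benzene run. The Hoechst run had 31.8% and 4.89% against benzene run Green and 10.2% and 21.1% against imatinib run Green. For imatinib run Green against benzene run Green these shares were 38.9% and 2.19%. Higher genes were then 86.7%, 32.6% and 94.7% of those past 2-fold in the Hoechst run against benzene run Green, against imatinib run Green and in imatinib run Green against benzene run Green, in place of 69.4%, 61.2% and 62.5%, and 64.5% and 36.6% in the benzene and imatinib stain comparisons in place of 54.2% and 46.6%. Leaving out each library gave 0 to 2 members in the benzene run and 2 to 5 for imatinib run Green against benzene run Green, where the shares of all genes were not counted. Of 405 alternative values of log2 ratios, 347 kept their sign and side of 2-fold, 57 did not and 1, that of NR2C1 given above, reversed. In the stain fit without the replicate block (no run term) edgeR called 0 genes (387 at an unadjusted p under 0.05), and with RLE factors, no filter, all libraries or without the 12 libraries over 10000 genes it also called 0 (435, 680, 466 and 355), while DESeq2 called 117 (1317). Title numbers only name libraries, so the run was the only block. Leaving out a run leaves 1 sum per stain and no test. Of 250 detection shares under other thresholds, depths or libraries, 201 stayed within the exact binomial interval. Depth limits BCL11A, whose 0 in a group allows up to 3 reads. The mean rho with gamma globin stayed between -0.09 and -0.04 under 6 other settings, and that with epsilon globin between -0.04 and 0.01.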
